A study of Rattus norvegicus with 20 samples.

Results

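Acetylation of histone H3 (H3ac) was measured by chromatin immunoprecipitation (ChIP) in left ventricle of Dahl rats, a strain used to study salt and blood pressure. Arrays labelled as normal heart and as failed heart were compared. The 4 arrays described here were chosen by their labels from the 20 of the series: the H3ac ChIP array and the array of genomic DNA taken before immunoprecipitation (pre-IP) of each heart. The other arrays hold mRNA, acetylated histone H4 (H4ac) and 6 lysine methylations, and they are used below only where they show how H3ac differs. The normal group is a Dahl rat of 19 weeks with a normal heart, although no age is labelled for its H4ac array. The failed group is a Dahl rat of 19 weeks with a failed heart, for which the mRNA label adds congestive heart failure and a high-sodium diet; no diet is labelled for the other arrays. Only its description ties the normal H3ac array to the normal heart, since its title names no heart.

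The design text gives 1 specimen of left ventricle for each experiment and does not say whether assays shared it, so each value below is 1 array with no replicate error, no test and no p-value. A difference between the hearts is a difference between those arrays, not between groups of animals. Normal heart and failed heart below name the label of an array, whether or not assays shared a specimen. The mRNA labels name left ventricular myocytes, while the H3ac labels name the heart, and whether both hold the same mix of cells is not given. In left ventricle tissue, fewer cells of a type and less of the mark per cell cannot be told apart. The arrays are Affymetrix Rat Genome 230 2.0 expression arrays, so a value describes DNA that hybridised to probes designed for transcripts, and not a promoter. Each array was scaled to a median of 100, values under 10 were set to 10 (the floor), and log2 was taken; a scaled intensity below is on the scale before log2. Enrichment is the log2 value of H3ac less that of the pre-IP array of the same group, normal or failed. A difference is failed minus normal. A step of 1 on the log2 scale is 2-fold. There were 14217 genes, 1 probe set each, of which 7084 passed the level filter, a mean scaled intensity of at least 98.2 over the 4 arrays (taken on the log2 scale).

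Acetyl groups are put on the lysines of the H3 tail by acetyltransferases such as Ep300 and Kat2b, removed by histone deacetylases and sirtuins, and bound by bromodomain proteins. The mark neutralises the charge of the tail and is usually found at active promoters and enhancers, many of them rich in CG dinucleotides. In cardiac muscle, deacetylases of class IIa hold back Mef2, a transcription factor of the hypertrophic gene programme.

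The promoters below are shown because the CG content of a gene's promoter moved weakly with its H3ac enrichment in both hearts (Spearman's rho 0.11 and 0.09). Each line holds the 250 bases before the start of a gene, 5′ to 3′ along the gene's strand, from RefSeq on the GRCr8 build, with every CG in capitals. Dusp1, Junb and Tprn were genes with H3ac above pre-IP in both hearts, and Olr1271 and Vom2r18 were genes below it in both. Nupr1 and Myh7 were the genes with the largest difference each way without pre-IP among the genes named below.
Dusp1 (chr10:17184603-17184852, plus strand, 25 CG): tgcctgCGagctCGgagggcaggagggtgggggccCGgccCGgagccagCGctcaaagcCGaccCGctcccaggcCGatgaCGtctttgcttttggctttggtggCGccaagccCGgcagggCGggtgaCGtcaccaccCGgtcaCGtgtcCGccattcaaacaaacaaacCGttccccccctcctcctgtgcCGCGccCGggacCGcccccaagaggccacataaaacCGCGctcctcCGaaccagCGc
Junb (chr19:40080876-40081125, plus strand, 19 CG): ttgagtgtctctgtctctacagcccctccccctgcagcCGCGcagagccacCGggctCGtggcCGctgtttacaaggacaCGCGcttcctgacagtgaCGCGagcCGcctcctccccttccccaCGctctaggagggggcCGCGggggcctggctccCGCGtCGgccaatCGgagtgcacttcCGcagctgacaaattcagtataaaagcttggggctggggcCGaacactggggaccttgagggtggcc
Tprn (chr3:28474072-28474321, plus strand, 20 CG): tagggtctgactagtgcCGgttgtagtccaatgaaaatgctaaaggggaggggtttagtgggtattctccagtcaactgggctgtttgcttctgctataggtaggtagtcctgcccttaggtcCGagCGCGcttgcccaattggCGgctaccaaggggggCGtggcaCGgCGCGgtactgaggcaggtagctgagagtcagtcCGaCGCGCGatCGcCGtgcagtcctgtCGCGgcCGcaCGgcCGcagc
Olr1271 (chr8:48024312-48024561, plus strand, 0 CG): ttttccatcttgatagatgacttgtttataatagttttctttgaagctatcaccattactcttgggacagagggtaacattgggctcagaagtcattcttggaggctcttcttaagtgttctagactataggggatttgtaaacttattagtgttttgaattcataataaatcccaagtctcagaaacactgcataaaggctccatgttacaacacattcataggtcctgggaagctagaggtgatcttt
Vom2r18 (chr1:72566059-72566308, plus strand, 2 CG): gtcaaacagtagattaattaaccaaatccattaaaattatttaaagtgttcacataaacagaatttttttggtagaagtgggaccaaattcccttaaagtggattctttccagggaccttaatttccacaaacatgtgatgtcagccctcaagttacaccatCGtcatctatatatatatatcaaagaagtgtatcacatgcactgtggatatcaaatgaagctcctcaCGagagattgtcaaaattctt
Nupr1 (chr1:190645902-190646151, minus strand, 2 CG): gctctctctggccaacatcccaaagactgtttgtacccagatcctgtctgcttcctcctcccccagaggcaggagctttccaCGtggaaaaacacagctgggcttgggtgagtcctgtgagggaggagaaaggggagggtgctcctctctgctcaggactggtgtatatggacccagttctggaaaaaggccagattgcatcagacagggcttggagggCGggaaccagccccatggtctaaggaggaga
Myh7 (chr15:32438195-32438444, minus strand, 4 CG): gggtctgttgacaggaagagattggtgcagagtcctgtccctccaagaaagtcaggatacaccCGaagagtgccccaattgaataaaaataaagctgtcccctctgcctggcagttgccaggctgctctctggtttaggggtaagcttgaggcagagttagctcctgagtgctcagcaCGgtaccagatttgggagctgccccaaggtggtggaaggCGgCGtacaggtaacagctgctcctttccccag

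Enrichment of a gene in one heart went with its enrichment in the other. Over 14217 genes, which are not independent replicates, Spearman's rho between the hearts was 0.53 for H3ac, with no array in common. H3ac of the normal heart had a rho of 0.52 with H4ac and 0.48 with K4me2 (a lysine dimethylation) of the failed heart. The values were 0.065 with K4me3 and -0.31 with K9me2, a methylation found in silent chromatin. In the other direction, H3ac of the failed heart had a rho of 0.38 with H4ac, 0.41 with K4me2 and 0.21 with K4me3 of the normal heart. Without pre-IP, the H3ac levels of the hearts had a rho of 0.90, a value that includes how brightly each probe set hybridises whatever the sample.

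**Figure D1:**
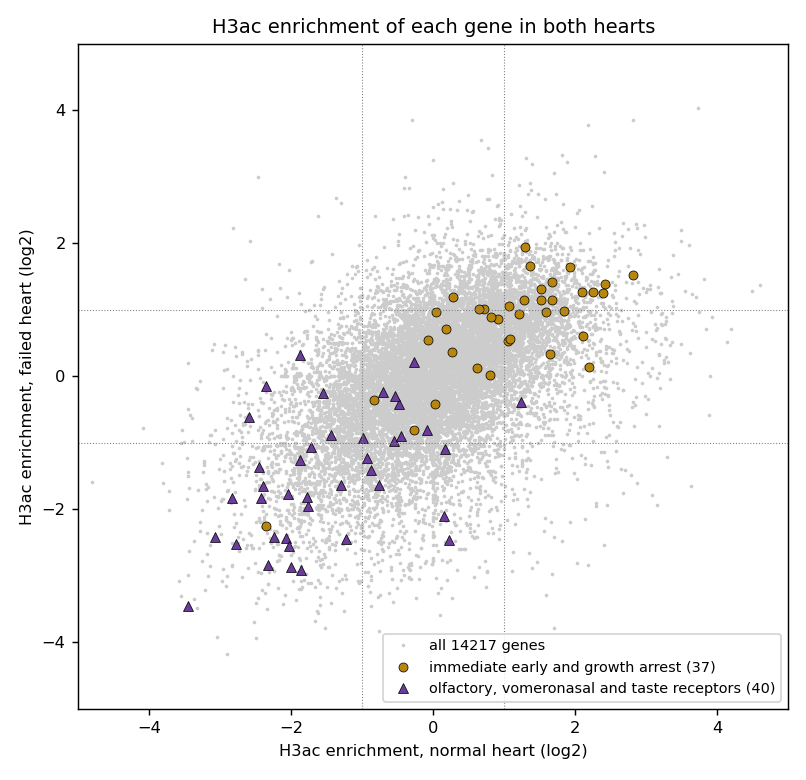
H3ac enrichment over pre-IP of each gene in the normal heart (x axis, log2) against the failed heart (y axis, log2); each point is 1 gene measured on 1 array per assay and heart, and dotted lines mark -1 and 1. Of the 37 immediate early and growth arrest genes, 32 lie above 0 in both hearts, while 34 of the 40 olfactory, vomeronasal and taste receptor genes lie below 0 in both.

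Of the 7084 genes past the level filter, 684 (9.66%) had an enrichment of at least 1 in both hearts, and 97 (1.37%) of at most -1. The filter averages the H3ac arrays too, which favours genes high on H3ac. Without the filter the counts were 850 (5.98%) at least 1 and 1029 (7.24%) at most -1. Over all 14217 genes, 36.8% were above 0 in both hearts and 31.9% below 0 in both. The median over all genes was 0.05 in the normal heart and 0.04 in the failed one. All scaling sets each array's median equal, so an overall gain or loss of H3ac in a heart cannot be seen. With the values as deposited, the median enrichment shifted by -0.35 in the normal heart and -0.39 in the failed one, and the difference without pre-IP by -0.02; changes below are relative to the array medians.

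Immediate early and growth arrest genes had the highest median H3ac enrichment of the 29 gene classes and families compared. The immediate early genes among them are those that cells induce within minutes of a stimulus. However, the RT1 genes of antigen presentation came as high in the failed heart (0.97). The rank depends on the scaling. In the failed heart the RT1 median was higher as deposited, at 0.63 against 0.58, and after quantile normalization, at 0.87 against 0.38. In the normal heart glycolysis genes were as high after quantile normalization, at 0.71 against 0.69. The median enrichment of the immediate early and growth arrest genes was 1.20 in the normal heart and 0.97 in the failed one. It was above 0 under both other scalings. Of 37 measured genes, 32 were above 0 in both hearts (86.5%) and 3 below. An enrichment of at least 1 in both hearts was seen for 14 of the 37, against 5.98% of all genes. Among the other lists above the median of all genes in both hearts were those of the respiratory chain, the mitochondrial ribosome, hypertrophy (0.39 and 0.57), chaperones (0.32 and 0.44) and endothelial markers. Genes past the level filter, as most members of these lists were, had higher medians of 0.36 and 0.42. The chaperone medians and the hypertrophy median of the normal heart lay close to these values. The plot of class medians shows the order of the classes.

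**Figure D2:**
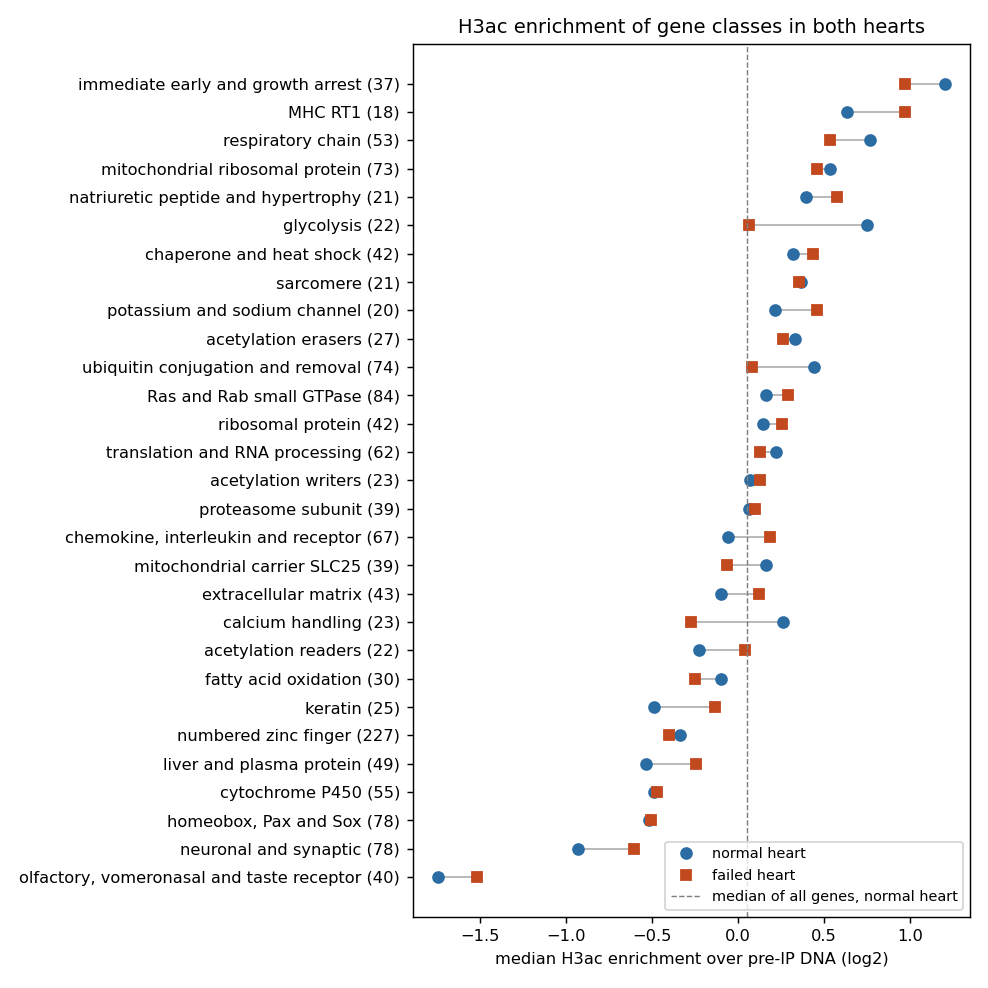
Median H3ac enrichment over pre-IP (x axis, log2) of 29 gene classes and families (y axis, with the number of genes measured) in the normal heart (circles) and the failed heart (squares), 1 array per assay and heart. Medians run from -1.75 and -1.52 for the olfactory, vomeronasal and taste receptors to 1.20 and 0.97 for the immediate early and growth arrest genes; several classes near 0 change sign under another scaling.

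Among the immediate early genes, Ier3, a stress-induced survival gene, was the highest in the normal heart. Its scaled H3ac intensity was 2435 in the normal heart and 2529 in the failed one, and its pre-IP intensity was 349 and 876. H3ac was above pre-IP in each heart, by 2.80 in the normal heart and 1.53 in the failed one. The H3ac values of the hearts were alike, while the pre-IP values were not. Ier5 had H3ac values of 411 and 243 over pre-IP values of 77.4 and 92.7, which gave 2.41 and 1.39. Its 3 probe sets all passed 1 in both hearts. Junb, a subunit of the AP-1 transcription factor, had H3ac values of 1867 and 1097 over pre-IP values of 522 and 556. That is an enrichment of 1.84 in the normal heart and 0.98 in the failed one. Dusp1, a phosphatase that switches off MAP kinases, had H3ac values of 1011 and 697 over 238 and 288, which gave 2.09 and 1.27; its other probe set had 1.005 and 0.93. Both hearts stood above their pre-IP array at these genes, with the normal heart higher. Klf2, a transcription factor induced by blood flow in endothelium, had 1.35 and 1.65, and 4 of its 5 probe sets passed 1 in both hearts.

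The exceptions in the class were few. Nr4a3, an orphan nuclear receptor, had -2.36 and -2.26, Nr4a2 had -0.84 and -0.36, and Atf3, a stress transcription factor, had -0.27 and -0.81. None of these 3 genes passed the level filter, and Nr4a3 was at the floor on the failed H3ac array. Over their probe sets, Nr4a3 ran from -2.36 to 0.30 in the normal heart and Nr4a2 from -0.36 to 0.02 in the failed heart. Fos, the partner of Jun in AP-1, had 0.90 and 0.86 and did not pass the filter either. The other Fos probe set was at the floor on both pre-IP arrays and on the failed H3ac array, with 62.1 on the normal H3ac array, so its enrichment is only a bound. Egr1, a zinc finger transcription factor induced by stretch, was close to its pre-IP level in the normal heart at 0.04 and at 0.97 in the failed heart.

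Of the lists of nuclear genes for mitochondrial proteins, those of the respiratory chain and the mitochondrial ribosome stood above pre-IP in both hearts. Fatty acid oxidation genes had medians of -0.10 and -0.25, and mitochondrial carriers 0.16 and -0.07. The median of 53 respiratory chain genes was 0.77 in the normal heart and 0.53 in the failed one, the latter -0.038 after quantile normalization. Of these genes, 36 were above 0 in both hearts and 8 below. Cyc1, a subunit of complex III, had 1.78 and 1.01, and Cox5b, a subunit of complex IV, had 1.39 and 1.55. At the other end, Atp5pb, part of the stalk of ATP synthase, had -0.61 and -1.22. The median of 73 mitochondrial ribosomal protein genes was 0.53 and 0.46, above 0 under both other scalings, and 13 of them reached 1 in both hearts. Mrpl23 had 1.29 and 2.20, and Mrps18a had 2.50 and 1.03. Cytosolic ribosomal protein genes, whose mRNA is abundant, had lower medians of 0.15 and 0.25, which fell below 0 under both other scalings.

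Sarcomere genes are among the most transcribed in the ventricle, and 18 of the 21 measured were in the top decile of mRNA in both hearts. Their median H3ac enrichment was 0.36 in the normal heart and 0.35 in the failed one, and the latter was -0.037 as deposited and -0.35 after quantile normalization. All genes past the level filter, as 20 of the 21 were, had medians of 0.36 and 0.42. Of the 21, 11 were above 0 in both hearts and 6 below. Tnnc1, cardiac troponin C, had 1.85 and 1.27, and Tcap, a protein of the Z disc, had 1.07 and 1.46. Myom2, an M-band protein, had -1.10 and -1.37. The defining markers of heart muscle were thus spread on both sides of pre-IP, although the mRNA places the tissue as heart. The 11 measured endothelial markers had medians of 0.75 and 0.79, above 0 under both other scalings. Of the 11, 6 were above 0 in both hearts and 1 below, and 2 reached 1 in both. The lowest value was -0.40 for the normal heart and -1.20 for the failed one. Pecam1, an adhesion protein of endothelium, had 1.90 and 1.84. Dll4, an endothelial Notch ligand outside this list that was named for its high enrichment, had 2.07 and 2.00. The 18 genes of the rat major histocompatibility complex (RT1) had medians of 0.64 and 0.97, but for 6 of them a pre-IP array was at the floor. Without pre-IP, the RT1 median lay below the array median in the normal heart, at -0.45.

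Genes that the heart does not use as a rule were below pre-IP in both hearts. The 40 olfactory, vomeronasal and taste receptor genes, which encode chemical sensors of the nose and tongue, had medians of -1.75 and -1.52. The family was chosen by symbol, and 1 of its 40 symbols, Olr1, is the oxidised LDL receptor of vessels and no chemical sensor; without it the medians were -1.77 and -1.63. None of the 40 was above 0 in both hearts, and 34 were below 0 in both (85.0%). At most -1 in both hearts were 20 of the 40, against 7.24% of all genes. Their median scaled intensity was 17.8 and 14.0 on the H3ac arrays and 59.3 and 54.7 on the pre-IP arrays. H3ac was at the floor for 11 of them on the normal and 17 on the failed array, so their enrichment is an upper bound. With the floor raised to 50, the medians were -0.18 and -0.11. Only 3 of the 40 passed the level filter. Vom2r18, a pheromone receptor, had H3ac values of 92.0 and 112 over pre-IP values of 486 and 351, which gave -2.40 and -1.64. Olr1271 had H3ac values of 36.2 and 22.7 over pre-IP values of 153 and 123.1, which gave -2.08 and -2.44.

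Neuronal and synaptic genes had medians of -0.93 and -0.61 over 78 genes, of which 49 were below 0 in both hearts. Homeobox, Pax and Sox genes, the transcription factors of body patterning, had -0.52 and -0.51 over 78 genes. Liver and plasma protein genes had -0.54 and -0.24 over 49 genes, and cytochrome P450 genes, which oxidise drugs and steroids, -0.49 and -0.47 over 55. Numbered zinc finger genes had -0.34 and -0.40 over 227 genes, with 116 below 0 in both hearts and both medians at 0 once the floor was 50. All 5 of these lists had medians below 0 after quantile normalization; the as-deposited values shift every enrichment down and cannot test this. At a floor of 50 the cytochrome P450 medians were both 0, those of liver and plasma protein genes -0.12 and 0, and those of neuronal genes -0.34 and -0.068. Some members stood apart from their class. Hoxb3 had 1.40 and 1.80, Zfp703 had 1.79 and 2.33, and Htr2a, a serotonin receptor of vascular smooth muscle, had 1.21 and 1.37, with its 4 probe sets between -0.41 and 1.21 in the normal and between -0.24 and 1.37 in the failed heart, and 1 of the 4 at the floor on every array.

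Set beside the other marks of the normal and failed heart, whose enrichment uses the same pre-IP arrays, the low classes differed. The olfactory, vomeronasal and taste receptor genes had H4ac medians of -1.78 and -1.66, K4me2 medians of -0.62 and -0.76, and K4me3 medians of -0.18 and -0.17. Their K9me2 medians were 0.61 and 0.67 and their K20me3 medians 0.61 and 0.80. The homeobox, Pax and Sox genes had H4ac medians of -0.93 and -1.27, but K4me2 medians of 0.09 and 0.12 and K4me3 medians of 0.50 and 0.47. At the other end, the immediate early and growth arrest genes had H4ac medians of 0.60 and 0.41 and K4me2 medians of 1.23 and 1.56. Their K4me3 medians were 0.11 and -0.05, and their K9me2 medians -1.21 and -1.27. These are medians of 1 array per heart, and no difference between marks was tested.

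Genes with a CG-poor promoter had less H3ac in both hearts. A RefSeq promoter, from 250 bases before to 50 after the start, was matched for 11700 genes (82.3%). The motif counted was CG, which reads the same on both strands; of all 33465 promoters in the table, 94.5% held at least 1, with a median of 7. Where a gene had several promoters, their mean count was used. Genes with 0 to 1 CG had median enrichments of -0.61 in the normal heart and -0.38 in the failed one (383 genes). From 2 to 3 CG the medians were -0.27 and -0.17, and from 16 to 20 CG both were 0.14. Above that the medians did not go higher, at 0.12 and 0.09 for 31 to 66 CG (2069 genes). The spread inside each group was wider than the step between the groups, with the 25th percentile at -1.32 and the 75th at 0.12 for 0 to 1 CG in the normal heart. Spearman's rho across the 11700 genes was 0.11 and 0.09. For the pre-IP level itself it was 0.08 and 0.08, and for H4ac enrichment 0.10 and 0.12. Genes with CG-poor promoters also had less mRNA, with a median mRNA percentile of 21.2 at 0 to 1 CG against 61.4 at 31 to 66.

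**Figure D3:**
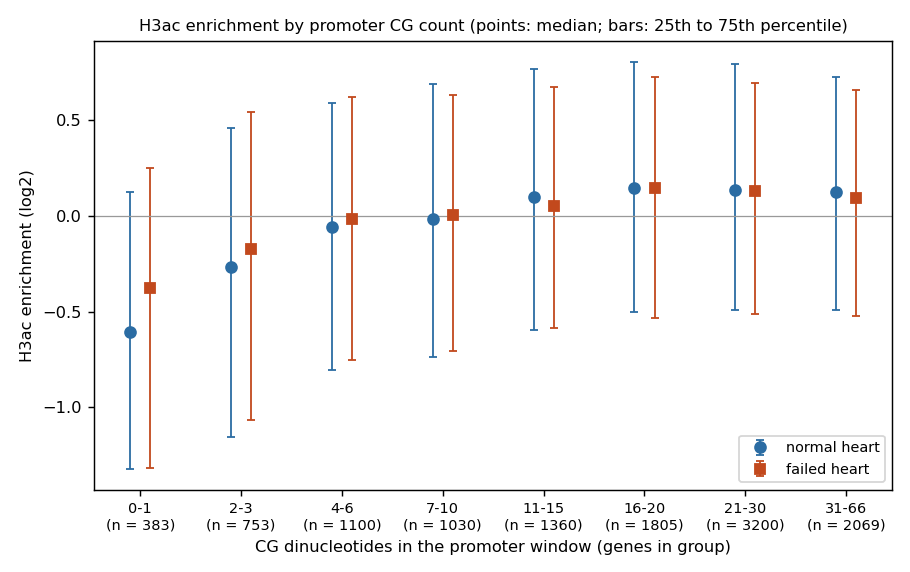
H3ac enrichment over pre-IP (y axis, log2) of genes grouped by the number of CG dinucleotides in their promoter window (x axis, with the number of genes), normal heart in circles and failed heart in squares. Points are medians over genes and bars run from the 25th to the 75th percentile over genes; medians go from -0.61 and -0.38 at 0 to 1 CG to 0.14 in both hearts at 16 to 20 CG.

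The step was widest in the genes of low mRNA. In the third of genes with the least mRNA, the medians were -0.58 and -0.43 for 0 to 3 CG and 0 in both hearts for 16 to 66 CG. Among genes of middling mRNA they were -0.18 and 0 for 0 to 3 CG and 0.17 and 0.16 for 16 to 66 CG. In the third with the most mRNA, they were 0.05 and 0.05 for 0 to 3 CG (162 genes) and 0.16 and 0.16 for 16 to 66 CG. Among the printed promoters, that of Olr1271 had the fewest CG and that of Dusp1 the most, and Tprn, with enrichments of 2.67 and 2.31, was also rich in CG. Myh7 and Nupr1 had few CG and yet H3ac well above pre-IP in 1 heart each. Slc23a3, with 4 CG in the window, had 2.65 and 2.11, while Acat2, with 18, had -2.02 and -2.20. The difference between the hearts had a rho with CG of -0.03 over pre-IP and -0.04 without it.

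Named by rule were the 10 genes with the highest enrichment in both hearts among those past the filter and off the floor. They were Tprn, a hair cell protein, Fam43a, Tbcc, a tubulin folding cofactor, Nrm, a protein of the inner nuclear membrane, Nxph3, a neurexin ligand, Nosip, a partner of nitric oxide synthase, Slc23a3, Rgs3, a regulator of G protein signalling, Dll4 and Stk11, the kinase that activates AMPK. Tprn had H3ac values of 306 and 485 over pre-IP values of 48.0 and 98.0. Fam43a had 277 and 256 over 38.4 and 52.2, which gave 2.85 and 2.29. Nosip had 245 and 459 over 21.8 and 99.3, which gave 3.49 and 2.21. For these 3 genes H3ac was higher than pre-IP in both hearts, and the pre-IP value itself was below 100 on each array. A different case was Stk11, with H3ac values of 880 and 968 over 144 and 254, which gave 2.61 and 1.93. Its other probe sets had 0.69 and 0.77 in one case and 3.30 and 1.69 in the other. The second probe set of Nxph3 was near pre-IP, at 0.18 and 0.28, and those of Nrm and Dll4 were at 1.36 and 2.18 and at 1.66 and 1.67.

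At the low end by the same rule were Spetex2l1 and Spetex2l2, members of a repeated testis gene family, Ighl2, Acat2, a thiolase of the cytosol, and 2 genes of the mitochondrial genome. Spetex2l1 had H3ac values of 1185 on both arrays over pre-IP values of 6234 and 6705, which gave -2.40 and -2.50. Near-identical copies cannot be told apart on an array, so the family is reported as uncertain. COX1 and COX2, subunits of cytochrome c oxidase in mitochondrial DNA, which has no histones, had enrichments of -2.15 and -2.70 and of -1.97 and -1.97. COX1 had H3ac values of 6841 and 3953 over pre-IP values of 30274 and 25626. Over the 8 marks and both hearts, all 32 enrichments of these genes were below 0, from -2.80 to -0.94. Without pre-IP the same probe sets lay above their array medians, COX1 by 6.10 and 5.30.

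A second probe set of a gene, where one passed the filter, is the nearest thing to a repeat in these arrays, although both are read from the same hybridisation. Among 1937 such genes, 435 had at least 1 probe set with an enrichment of 1 or more in both hearts, and 77 had at least 2. These 77 include Jun, Jund, Ier5, Klf2, Bcl2l1, a survival factor, Thra, the thyroid hormone receptor that acts on myosin genes, Hspb8, a small heat shock protein of muscle, Foxo1 and Pdgfrb, a receptor of pericytes and fibroblasts. The 3 probe sets of Thra ran from 1.66 to 2.36 in the normal and from 1.26 to 1.98 in the failed heart. The 3 of Irf2bpl ran from 1.71 to 2.10 and from 1.78 to 2.07. Below -1 in both hearts were 41 genes at 1 or more probe sets and 2 at 2 or more. Myh1, a myosin of fast skeletal muscle, was one, and all 5 of its probe sets were low, from -1.86 to -1.31 in the normal and from -2.25 to -1.58 in the failed heart. The other was Epha7, an ephrin receptor of the nervous system.

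Differences between the hearts were less repeatable than the enrichment itself. Over pre-IP, 756 of the 7084 genes (10.7%) were at least 1 higher in the failed heart and 613 (8.65%) at least 1 lower. After quantile normalization these numbers were 625 and 751, so the larger side depended on the scaling. Without pre-IP, and with the median scaling, the numbers were 408 (5.76%) and 226 (3.19%). Past 1 both with and without pre-IP were 260 genes higher (3.67%) and 144 lower (2.03%), which is 34.4% and 23.5% of the genes past 1 over pre-IP. The pre-IP arrays alone, where no mark is measured, differed by at least 1 at 377 genes one way and 250 the other. Between the first 2 probe sets of 1937 genes, Pearson's r was 0.32 and 0.25 for the enrichment in the normal and failed heart, 0.10 for the difference over pre-IP and 0.21 without pre-IP. Of these 1937 genes, 129 were called higher at 1 or more probe sets and 4 at 2 or more. Called lower were 94 at 1 or more and 1 at 2 or more. At 1 probe set per gene, 3.67% of all genes past the filter were called higher and 2.03% lower. Whether the repeats exceed what such shares give by themselves was not tested.

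**Figure D4:**
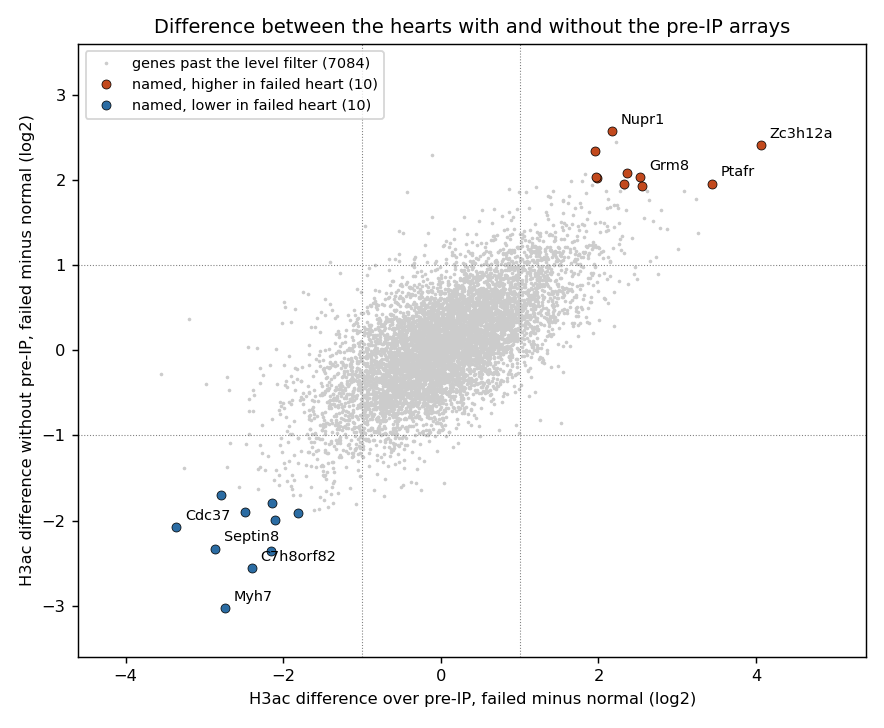
Difference in H3ac, failed minus normal, over pre-IP (x axis, log2) and without pre-IP (y axis, log2) for the 7084 genes past the level filter, 1 array per assay and heart; dotted lines mark -1 and 1, and the 10 genes named each way are coloured. Zc3h12a lies at 4.06 and 2.41, Nupr1 at 2.17 and 2.57, and Myh7 at -2.74 and -3.02; both axes contain the same H3ac arrays.

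The 5 genes that were past 1 at 2 or more probe sets, with and without pre-IP, were Acot7, Fgf9, Grm8 and Gtpbp6 on the higher side and Fitm2 on the lower. Acot7, which cleaves long-chain acyl-CoA, had 0.93 in the normal heart and 2.38 in the failed heart at one probe set, and 0.29 and 2.69 at the other. Fgf9, a growth factor of heart development, stayed below pre-IP, between -2.43 and -2.14 in the normal and between -0.89 and -0.68 in the failed heart. Both probe sets of Fitm2, a protein of lipid droplet formation, were above pre-IP in the normal heart, at 1.26 to 1.42, and close to it in the failed heart, at -0.23 to -0.11. The Fitm2 differences ran from -1.53 to -1.48 over pre-IP and from -1.84 to -1.76 without it.

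By rule, the 10 genes named as higher in the failed heart were Zc3h12a, Nupr1, Evi5l, Grm8, Tas2r119, Pelp1, Ctsz, Ptafr, Ift57 and Ccdc6. Zc3h12a, an endonuclease that degrades mRNAs of inflammation, had H3ac values of 76.1 in the normal heart and 406 in the failed one, and pre-IP values of 197 and 62.9. Its enrichment was -1.37 and 2.69, and the difference 4.06 over pre-IP and 2.41 without it. H3ac and pre-IP moved opposite ways at this gene. Nupr1, a stress-induced chromatin protein, had H3ac values of 129 and 770 over pre-IP values of 103 and 136, so that H3ac differed by over 2-fold and pre-IP by less. Its difference was 2.17 over pre-IP and 2.57 without it, and its mRNA was higher by 3.02. Ptafr, the receptor of platelet-activating factor, had H3ac values of 174 and 675 over 572 and 205, a difference of 3.44 over pre-IP and 1.96 without it. A second probe set of Ptafr had 0.89 and -0.06. Grm8, a glutamate receptor, had H3ac values of 200 and 818 over 282 and 199, a difference of 2.53 over pre-IP and 2.03 without it. Its other probe sets had 3.87 and 0.76 over pre-IP.

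On the other side, the 10 genes named as lower in the failed heart were Myh7, C7h8orf82, Septin8, Msto1, Cdc37, Gstt2, Wap, Rbm34, Sel1l and Ces1d. Myh7, the slow myosin heavy chain that rodents express again in heart failure, had H3ac values of 959 and 118 over pre-IP values of 298 and 244. Its enrichment went from 1.69 in the normal to -1.05 in the failed heart, a difference of -2.74 over pre-IP and -3.02 without it. The Myh7 mRNA was higher in the failed heart, by 1.61. The other Myh7 probe set had H3ac values of 585 and 303 over 425 and 328, a difference of -0.57 over pre-IP and -0.95 without it, and so pointed the same way with less size. Cdc37, which brings kinases to Hsp90, had H3ac values of 338 and 80.1 over 77.1 and 187, a difference of -3.36 over pre-IP and -2.08 without it. Septin8, a filament protein, had H3ac values of 185 and 36.8 over 129 and 187, but its other probe sets had differences of 1.66 and 0.27 over pre-IP. Gstt2, a glutathione transferase, had -2.11 over pre-IP, while its other probe set had -1.24 over pre-IP and 0.37 without it. The second probe set of Msto1, a mitochondrial protein, had 0.14 and 0.18.

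**Figure D5:**
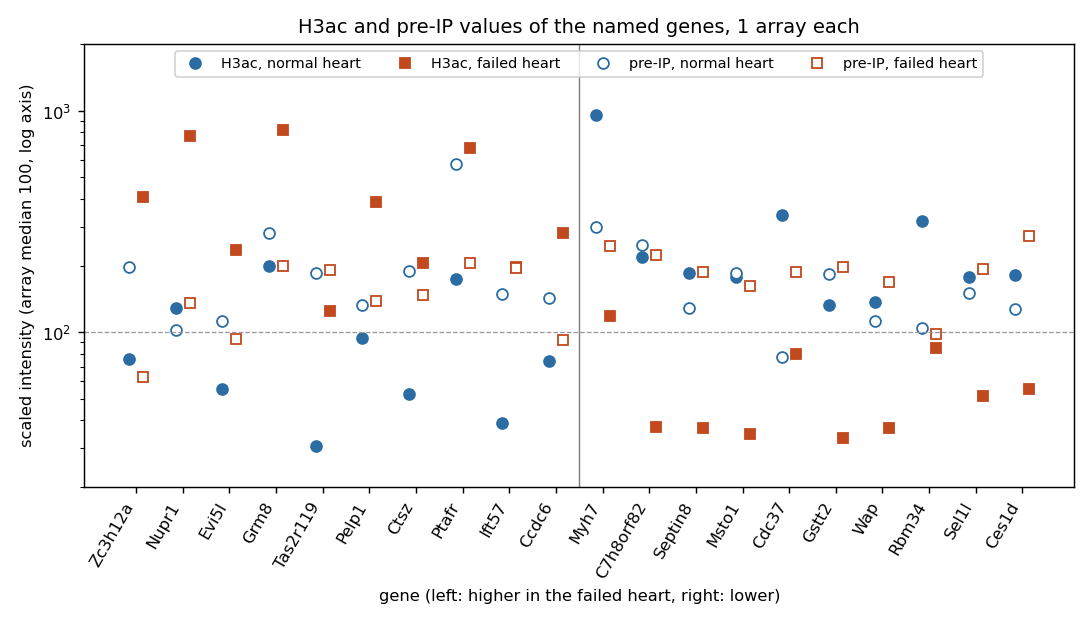
Scaled intensity (y axis, log scale, array median 100) of the 20 genes named for their difference (x axis), H3ac as filled and pre-IP as open symbols, normal heart in circles and failed heart in squares, 1 array each. At Nupr1 the H3ac values are 129 and 770 while the pre-IP values stay at 103 and 136; at Zc3h12a the pre-IP values also differ, 197 against 62.9.

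From above 1 in the normal to below -1 in the failed heart were 7 genes, among them Myh7, Cdc37, Slc4a3, an anion exchanger of heart muscle, and Pomp, a proteasome assembly factor. The opposite was seen at 12 genes, among them Zc3h12a, Ptafr, Ncan, a proteoglycan of the brain, and Alb, the albumin of plasma. Alb differed by 2.76 over pre-IP and 0.90 without it (its other probe set by 0.47 over pre-IP), and Slc4a3 by -3.26 and -1.39.

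The 16 measured genes of the 20 that were named whatever their values cover the heart failure programme and enzymes of acetylation; Gapdh, Actb, Hdac9 and Sirt1 had no probe set listed for them alone and were not analysed here. Nppa, atrial natriuretic peptide, had H3ac values of 224 and 238 over pre-IP values of 69.8 and 177. Its difference was -1.25 over pre-IP but 0.09 without it, while its mRNA was higher by 4.30. Nppb, brain natriuretic peptide, had H3ac values of 479 and 232 over 601 and 555, a difference of -0.93 over pre-IP and -1.04 without it, with mRNA higher by 2.46. Acta1, skeletal actin, differed by 0.08 and 0.14, with mRNA higher by 1.92. Ankrd1, a stress-responsive ankyrin repeat protein, had -0.72 and -0.61, and its other probe set -1.44 and -0.77. Ccn2, a matricellular growth factor, had -0.85 and -0.11, and Postn, a matrix protein of injured heart, 0.44 and 0.33, although Postn was under the level filter and its mRNA was higher by 4.78. At these 6 genes, all with more mRNA in the failed heart, H3ac was higher at both readings only for Acta1 and Postn, by less than 0.5. Egr1 and Col1a1, whose mRNA was higher by 0.70 and 0.99, were also higher for H3ac at both readings, Egr1 by 0.93 and 0.39 and Col1a1 by 0.20 and 0.76.

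Myh6, the fast myosin heavy chain next to Myh7 in gene order, had H3ac values of 58.3 and 90.02 over pre-IP values of 239 and 114. Its enrichment was -2.04 in the normal heart and -0.35 in the failed one, a difference of 1.69 over pre-IP and 0.63 without it. A second Myh6 probe set had -0.94 and -1.08, the opposite direction. Myh6 and Myh7 are near-identical in much of their sequence, so both are reported as uncertain. Atp2a2, the calcium pump of the sarcoplasmic reticulum, had -0.51 and -1.08, and its 5 probe sets ran from -0.83 to 0.96 over pre-IP. Col1a1, a fibrillar collagen, had 0.20 and 0.76, and its other probe set 1.52 and 1.74. Hdac4, Hdac5 and Ep300, enzymes of histone acetylation, differed by 0.05, 1.14 and -0.28 over pre-IP and by 0.05, 0.62 and -0.01 without it. The other probe sets of Hdac5 and Ep300 had -0.56 and -0.09 over pre-IP.

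Of the 29 classes and families, glycolysis genes had the lowest median difference, -0.58 over pre-IP and -0.49 without it. Of 22 measured, 16 were below 0 both ways (72.7%) and 4 above, against 36.4% and 35.8% of all genes, whose median differences were -0.03 and 0. Their enrichment was 0.75 in the normal heart and 0.06 in the failed one, and the latter was below 0 under both other scalings, which left the sign of the difference as it was. Ldhb, lactate dehydrogenase B, had H3ac values of 333 and 134 over pre-IP values of 142 and 201, a difference of -1.82 over pre-IP and -1.32 without it. Tpi1, triosephosphate isomerase, had 510 and 278 over 188 and 256, or -1.32 and -0.88. Pgk1, phosphoglycerate kinase, had 72.6 and 30.5 over 76.6 and 103, or -1.68 and -1.25, but was under the level filter, and its 3 probe sets ran from -1.68 to 1.29 over pre-IP. Gpi, the isomerase of glucose phosphate, had -0.49 and -1.02, and Eno1, an enolase, had 0.08 and 0.20. Of the 15 glycolysis genes past the filter, 1, Ldhb, passed 1 both ways. That is 6.67% called lower, against 2.03% of all genes, and it rests on a single gene. The median mRNA difference of the class was 0.70.

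Respiratory chain genes lay lower in the failed heart by a smaller step, with a median of -0.26 over pre-IP and -0.33 without it, and 30 of 53 were below 0 both ways. Ndufs3, a core subunit of complex I, had -1.13 and -1.25, and Cox7b, a subunit of complex IV, 1.31 and 0.69. Sarcomere genes had medians of -0.19 and -0.39, with 13 of 21 below 0 both ways, while their median mRNA difference was 1.31. Myl2, the regulatory light chain of the ventricle, had -0.88 and -0.76 (its other probe set 0.22 and -0.14), and Myoz2, a Z-disc protein, 1.16 and 1.26. These class medians kept their sign after quantile normalization. Calcium handling genes had medians of -0.21 and -0.35, and fatty acid oxidation genes -0.04 and -0.36, of which the first was 0.02 after quantile normalization.

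Several lists were higher in the failed heart with and without pre-IP, among them the RT1 genes at 0.30 and 0.32, keratins at 0.48 and 0.17, chemokine and interleukin genes at 0.26 and 0.13, and homeobox, Pax and Sox genes at 0.18 and 0.22. With the floor at 50, their medians without pre-IP were 0.08, 0.02, 0 and 0 in this order, so they rest on low values. The 11 fibroblast markers had medians of 0.44 over pre-IP and 0.52 without it, with 8 above 0 both ways and 1 below. Only 5 of the 11 passed the level filter, and none of these was called. Of all genes past it, 3.67% were called higher and 2.03% lower, so 5 genes are too few to read. The median mRNA difference of the 11 was 0.99. Col3a1, a fibrillar collagen, had 0.49 and 0.63, and Tcf21, a transcription factor of cardiac fibroblasts, 0.45 and 0.86. Col1a2 went the other way, at -0.80 and -0.33. Extracellular matrix genes had medians of 0.23 and 0.19, with 17 of 43 above 0 both ways and 6 below. Cardiomyocyte markers stood at -0.19 and -0.35, with 7 of 11 below 0 both ways, although their median mRNA difference was 1.31. The part of cell numbers in these medians was not tested. Both the fibroblast and the cardiomyocyte medians kept their sign after quantile normalization. Macrophage and leukocyte markers had -0.35 over pre-IP and 0.18 without it, and endothelial markers -0.26 and 0.21, so these lists have no single direction. The 4 measured red blood cell markers were below 0 both ways, with medians of -1.24 and -0.97, and 1 of them passed the filter.

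Called genes were spread thinly over the classes. The ubiquitin genes had 4 called lower and 1 higher among 43 past the filter, with Ube2h at -1.89 and -1.47 (its 3 probe sets from -2.13 to 0.76 over pre-IP) and Usp44 at 2.06 and 1.17. Chaperone genes had 3 lower and 1 higher among 33, with Cct7, a subunit of the chaperonin, at -1.55 and -1.86 and Stip1, a co-chaperone, at 1.54 and 1.76. Numbered zinc finger genes had 3 higher and 0 lower among 72, of which Zfp362 had 2.79 and 1.66. Neuronal and synaptic genes had 3 higher and 0 lower among 18, Grm8 and Chrnb2, a nicotinic receptor subunit at 1.62 and 1.43, among them. As shares of the members past the filter, the lower calls were 9.30% of the ubiquitin and 9.09% of the chaperone genes, against 2.03% of all genes. The higher calls were 16.7% of the neuronal and 4.17% of the zinc finger genes, against 3.67%. The filter averages the H3ac arrays too, so a member high on 1 of them passes more easily. This can raise the share called in a class with few members past the filter, such as the neuronal genes (18 of 78). Each share rests on 3 or 4 genes and no test was run.

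The H3ac difference did not follow the mRNA difference. Among genes that passed the level filters of both assays, 631 had at least 2-fold more mRNA in the failed heart, and 2.69% of them were called higher for H3ac and 2.54% lower. Of 163 genes with at least 2-fold less mRNA, 4.91% were called higher and 5.52% lower, and of the 4460 others 3.09% and 2.04%. Spearman's rho between the differences was -0.01 over 14217 genes with and without pre-IP. Nupr1 was a gene at which both were higher, and at Myh7 they had opposite signs.

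H3ac differences were partly shared with ChIP arrays of other marks, measured without pre-IP so that no array is common to both. At the 408 genes higher by 1 or more on the H3ac arrays, the median difference was 0.25 for H4ac and 0.46 for K4me3, against -0.02 and -0.02 over all 7084 genes. Of the 408, 12.7% were at least 1 higher for H4ac, against 2.84% of all, and 12.5% for K4me3, against 2.74%. At the 226 lower genes the medians were -0.38 for H4ac and -0.52 for K4me3, and 80.1% and 85.0% of the genes were below 0. Marks of silent chromatin moved in the same direction. K9me3 had medians of 0.38 at the higher and -0.30 at the lower genes, against -0.05 over all, and K9me2 had 0.35 and -0.31 against 0.11. The pre-IP arrays had 0.03 and -0.08, against 0.01 over all, and mRNA 0.14 and 0.19 against 0.18. K4me2 had 0.26 and -0.23 against 0.18.

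At single genes the other marks gave mixed answers. Myh7 had differences without pre-IP of -3.02 for H3ac, -1.94 for H4ac, -3.07 for K4me2 and -1.89 for K4me3, all lower in the failed heart. It was also -2.85 for K9me3, while K9me2, K20me3 and K27me2 had 0.13, -0.23 and -0.36. Nupr1 was higher for each of the active marks, by 1.31 for H4ac, 1.52 for K4me2 and 1.45 for K4me3. It was also higher by 1.44 for K9me3 and 0.81 for K20me3, with 0.43 for K9me2 and -0.042 for K27me2. Zc3h12a was higher by 1.51 for K4me3 but by 0.59 for H4ac and 0.01 for K4me2, and it had 2.03 for K27me2 and -2.16 for K20me3. Tas2r119, a bitter taste receptor, was higher for H3ac by 2.03 but had -0.61 for H4ac, -1.16 for K4me2 and -0.66 for K4me3. For H4ac, 8 of the 10 genes named as higher were above 0 and 8 of the 10 named as lower were below 0, and for K4me3 the counts were 8 and 9. For K4me2 they were 5 and 5. Among the other marks, K9me2 was above 0 at all 10 higher genes and below 0 at 6 of the lower, and K9me3 at 6 and 7. For K20me3 the counts were 4 and 4, and for K27me2 6 and 3.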

How the data were processed

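The authors deposited linear intensity, 1 value for each of 31099 probe sets on each array; 57 of the probe sets are controls. Per the labels' protocols, ChIP products and pre-IP DNA were fragmented, amplified with T7 RNA polymerase and labelled with biotin. How the authors summarised and scaled these values, and with which tool, is not stated in the labels; each array had nearly the same trimmed mean, between 500.03 and 500.17, as the deposited values show. Of the probe sets, 20826 belonged to 1 gene in the platform annotation, 436 to several and 9780 were not listed, and the last 2 kinds were left out. Identifiers of 20758 were matched to the RefSeq table.

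Each array was scaled to a median of 100 with a floor of 10, which touched 2.23% to 6.07% of the probe sets of the 4 arrays. For the 4525 genes with 2 or more probe sets, the one brightest on average on the mRNA arrays stood for the gene. The level filter was the median over all probe sets of the mean log2 value over the 4 arrays. Genes were counted at 1 on the log2 scale. With 1 array per assay and heart, no test was run and the number of arrays limits the precision.

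Named were, past the filter and off the floor, the 10 highest and 6 lowest in both hearts, the 10 largest differences each way by the smaller of the values with and without pre-IP, up to 2 highest and 2 lowest members of a list, and 20 genes whatever their values. Genes named otherwise (repeated at 2 probe sets, opposite in the hearts, neighbours, exceptions to a class, further class members) were chosen after their values were seen. The members and the 36 lists were chosen with earlier results of these data known. Alternatives changed the scaling, the floor, the probe set of a gene, the filter and the pre-IP correction. The counting was tested on simulated data. Python 3.11.15, numpy 2.4.6, pandas 2.3.3, scipy 1.17.1 and matplotlib 3.10.9 were used.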

Additional observations from a re-analysis of the deposited data

How the results depend on the processing

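The 684 genes enriched 2-fold in both hearts became 187 with the values as deposited and 126 after quantile normalization, and the 97 below pre-IP became 277 and 198. Without a level filter the 97 became 1029, and with the filter at the 75th percentile 30. The 1369 differences over pre-IP (756 higher, 613 lower) were 3930 (1805 and 2125) without a filter, 522 (295 and 227) at the 75th percentile and 634 (408 and 226) without pre-IP. The 634 differences without pre-IP were 296 (165 and 131) after quantile normalization, 2036 (972 and 1064) without a filter and 216 (147 and 69) at the 75th percentile. The other counts stayed within 1.5 times, but the direction with more genes did not always hold. Over pre-IP, 625 genes were higher and 751 lower after quantile normalization. Without a level filter more genes were lower than higher, both over pre-IP and without it.

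Of 25 list medians of at least 0.5 in size, none changed sign as deposited, with the floor at 50, or with another choice of probe set. After quantile normalization the respiratory chain in the failed heart was -0.038, and without pre-IP the RT1 genes in the normal heart were -0.45. Of 78 values of named genes past 1, none changed sign under another scaling or floor or as a mean over probe sets. With the probe set of highest pre-IP level, the differences without pre-IP of Gstt2 and Atp2a2 were 0.37 and 0.42. Without pre-IP the low genes lay above their array medians in the normal and failed heart: Spetex2l1 by 3.57 and 3.57, Spetex2l2 by 3.78 and 3.75, Ighl2 by 0.10 and 0.26, Acat2 by 0.81 and 0.15, COX1 by 6.10 and 5.30 and COX2 by 6.64 and 6.37. Nppa and Ier3 then differed by 0.086 and 0.055. Leaving Olr1 out of the receptor family, added after seeing the data, gave -1.77 and -1.63. Also added then, the step from 0 to 1 CG to 31 to 66 CG was 0.73 and 0.47 in the normal and failed heart, and 1.23 and 1.13 without pre-IP.

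No paired analysis was possible because each assay has 1 array per heart. Low signal is the other limit: genes near the floor, such as the chemical receptor genes, have only a bound.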

Other observations

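Genes next to each other in the genome had related H3ac enrichment, a pattern of position that the classes do not show. Gene order was taken from the RefSeq table, and 6917 genes past the level filter could be placed. Over 3134 pairs of neighbouring genes, Spearman's rho was 0.26 in the normal heart and 0.15 in the failed one. At 10 genes apart it was 0.11 and 0.12 (2604 pairs), and at 100 apart 0.06 and 0.03 (2018 pairs). Leaving out pairs whose symbols share their first 3 letters, such as members of a gene cluster, gave 0.26 and 0.14 for neighbours. The difference between the hearts had a rho of 0.035 over pre-IP and 0.08 without it for neighbours, and the pre-IP difference 0.08. Pairs share the arrays, and nearby genes can share base composition. Next to Zc3h12a, Meaf6 and Grik3, both under the level filter, had differences of -0.19 and 0.87 over pre-IP and 0.77 and 0.66 without it. Next to Cdc37, Tyk2, also under it, had -0.33 and -0.07, and Pde4a, a phosphodiesterase, 1.35 and 1.10.

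Among the enzymes and readers of acetylation, writers were close to the median of all genes, erasers lay above it, and readers lay below it in the normal heart. Of the erasers, 55.6% were above 0 in both hearts, against 36.8% of all genes. Writers had median enrichments of 0.07 and 0.13 over 23 genes, the first -0.28 and the second -0.26 as deposited, and erasers 0.33 and 0.26 over 27, the second -0.13 as deposited. Readers had -0.23 and 0.04 over 22, the second -0.35 as deposited. The as-deposited values shift every enrichment down. Chd4, a remodeller of the NuRD deacetylase complex, had 1.14 and 1.63, and Kat2b, an acetyltransferase, -0.86 and -1.01 (its other probe set -1.24 and, with H3ac at the floor, at most -3.19). Called higher in the failed heart was Ncoa2, a nuclear receptor coactivator, at 1.40 over pre-IP and 1.17 without it. Hdac11 had 0.84 and 1.42, with H3ac past 1 only without pre-IP.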
